A study of Mus musculus with 20 samples.

Results

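The 9 genes described here are switched on quickly by electrical activity in neurons. They are the early growth response genes Egr1, Egr2, Egr3 and Egr4, the orphan nuclear receptor genes Nr4a1, Nr4a2 and Nr4a3, the synaptic effector gene Arc, and the transcription factor gene Npas4. They were chosen by symbol, as the rows of the count table whose Ensembl identifier carries one of these symbols in the GRCm38 annotation. All 9 were found among the 55471 genes of the table, and all 9 passed the filter on low counts that left 17893 genes for testing.

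RNA was sequenced from hypothalamus slices of wild-type C57BL/6 mice in 20 libraries. There were 6 libraries from mice that ate a risperidone diet under pair-feeding, in which the food given is limited (RISP_PF), 7 from mice that ate the risperidone diet ad libitum (RISP_Ad.lib) and 7 from mice on control diet ad libitum (CON_Ad.lib). Risperidone is an antipsychotic that blocks dopamine and serotonin receptors, and the diet lasted 4 weeks. Per the labels, body weight did not differ from that of mice on control diet, and their wording leaves unclear whether this holds for both feeding regimes. The design lists no group pair-fed on control diet, so the comparison of the pair-fed mice with controls holds both the drug and the feeding. Age, sex and the hour of collection do not appear in the labels. Nor do the labels tie each library to a mouse of its own, and the p-values therefore rest on the spread between these libraries, some of which may be technical.

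Genes of this kind are known as immediate early genes, because their transcription needs no new protein synthesis. Calcium entry and growth factor signals reach them through kinases that act on transcription factors already bound at their promoters, chiefly CREB at cyclic AMP response elements and the serum response factor with its ternary complex partners at CArG boxes. Their RNAs appear and decay within a short time, so a level in tissue reflects recent stimulation. The Egr proteins are zinc finger transcription factors, some of which are held back by the corepressors Nab1 and Nab2. The Nr4a proteins are nuclear receptors that work without a known hormone, and Nr4a2 is also a steady identity factor of dopamine neurons. Arc protein acts at synapses, where it takes part in removing AMPA receptors. Npas4 is a neuron-specific transcription factor that responds to calcium and pairs with Arnt proteins. In the hypothalamus such genes are widely used as marks of neurons that were recently active, for example after fasting or refeeding.

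Promoter sequence, from RefSeq on GRCm38.p6, was at hand for 6 of the 9 genes. It is shown because cyclic AMP response elements and CArG boxes are among the known control elements of genes of this kind. Each stretch is given 5′ to 3′ on the gene's own strand and lies before the RefSeq transcription start, with capitals for the half-site TGACG, read on either strand as TGACG or CGTCA, and for the CArG box.
Egr2, chr10:67537619-67537868, plus strand: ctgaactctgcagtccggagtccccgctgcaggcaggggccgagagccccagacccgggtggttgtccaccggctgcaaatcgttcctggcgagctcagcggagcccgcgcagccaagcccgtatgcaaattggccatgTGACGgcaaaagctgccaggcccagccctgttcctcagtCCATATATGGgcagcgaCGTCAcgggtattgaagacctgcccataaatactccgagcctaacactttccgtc
Egr4, chr6:85513590-85513839, minus strand: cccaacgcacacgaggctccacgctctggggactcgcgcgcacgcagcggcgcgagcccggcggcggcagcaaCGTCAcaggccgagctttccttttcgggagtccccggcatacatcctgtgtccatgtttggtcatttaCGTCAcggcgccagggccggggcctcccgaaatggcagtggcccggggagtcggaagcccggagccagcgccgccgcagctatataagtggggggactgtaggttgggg
Nr4a1, chr15:101266596-101266845, plus strand: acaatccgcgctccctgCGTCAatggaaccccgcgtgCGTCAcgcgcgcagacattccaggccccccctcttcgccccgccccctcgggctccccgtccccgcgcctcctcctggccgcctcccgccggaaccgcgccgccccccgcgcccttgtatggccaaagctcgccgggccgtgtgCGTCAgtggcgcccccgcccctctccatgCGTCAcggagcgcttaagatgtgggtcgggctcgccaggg
Nr4a2, chr2:57124004-57124253, minus strand: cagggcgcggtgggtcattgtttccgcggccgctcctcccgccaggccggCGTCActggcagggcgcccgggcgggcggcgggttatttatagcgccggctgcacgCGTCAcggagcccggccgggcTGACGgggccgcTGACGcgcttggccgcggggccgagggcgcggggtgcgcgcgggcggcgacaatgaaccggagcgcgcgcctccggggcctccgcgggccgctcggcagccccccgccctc
Nr4a3, chr4:48045055-48045152, plus strand: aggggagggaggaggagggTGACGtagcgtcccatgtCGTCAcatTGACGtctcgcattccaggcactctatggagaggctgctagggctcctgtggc
Npas4, chr19:4990125-4990154, minus strand: tcgaCGTCAcgggaTGACGtcggaagtctg
Egr2 has several annotated starts, and the first of the windows with the most half-sites is shown. The Egr2 and Nr4a1 stretches lie inside the span of the gene but outside its annotated exons, since other transcripts start further upstream. The short Npas4 stretch lies in an annotated exon. The printed sequences hold 2 half-sites in Egr2, 2 in Egr4, 4 in Nr4a1, 4 in Nr4a2, 3 in Nr4a3 and 2 in Npas4.

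The half-site occurred in at least 1 promoter window of 300 bases in all 6 genes. Over all genes in the same table it occurred in 23% of 27025 genes, or 20.8% of 32851 windows. The full palindrome TGACGTCA, which contains the half-site on both strands, was in none of the 6 genes and in 2.03% of all genes. A CArG box was found in Egr2 alone among the 6, against 1.81% of all genes. These matches describe the letters in the windows and do not show that a factor binds there.

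In GRCm38, Egr1 (ENSMUSG00000038418) lies on chromosome 18 from 34859823 to 34864984 and Egr2 (ENSMUSG00000037868) on chromosome 10 from 67535475 to 67542188. Egr3 (ENSMUSG00000033730) lies on chromosome 14 from 70077203 to 70082614 and Egr4 (ENSMUSG00000071341) on chromosome 6 from 85511121 to 85513589. Of the nuclear receptors, Nr4a1 (ENSMUSG00000023034) lies on chromosome 15 from 101254269 to 101274795, Nr4a2 (ENSMUSG00000026826) on chromosome 2 from 57106830 to 57124003 and Nr4a3 (ENSMUSG00000028341) on chromosome 4 from 48045153 to 48086447. Arc (ENSMUSG00000022602) lies on chromosome 15 from 74669083 to 74672570 and Npas4 (ENSMUSG00000045903) on chromosome 19 from 4984355 to 4990316. All 9 are protein-coding, and in the annotation no other gene overlaps any of them.

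Library totals were 17318502 to 18314306 counts in the pair-fed group, 17316043 to 18606543 in 6 ad libitum risperidone libraries and 17352462 to 18493768 in the control group, while ad libitum risperidone library 3 held 9748005. Ad libitum risperidone library 1 stood apart in its regional markers. A list of 9 markers of cortex, hippocampus and amygdala, of which 8 passed the filter, summed to 548 to 666 CPM (read counts scaled to library size) in the pair-fed libraries. Among the ad libitum risperidone libraries the sum was 3950 CPM in library 1, 879 CPM in library 2 and 623 to 710 CPM in the other libraries. The control libraries held 620 to 716 CPM. Slc17a7, a glutamate transporter gene of cortical neurons, was at 698 CPM in library 1. The median of Slc17a7 was 8.46 CPM in the pair-fed and 6.35 CPM in the control libraries, and only Emx1 of the list was at 0 in any library, 1 of the ad libitum risperidone and 1 of the control group. Markers of the hypothalamus were present throughout, with sums of 944 to 1428 CPM in pair-fed, 576 to 1432 CPM in ad libitum risperidone and 1271 to 1655 CPM in control libraries, library 1 being the lowest. Sums of 5 general neuron markers were 3757 CPM in library 1 and 2271 to 2821 CPM in the other ad libitum risperidone libraries. The pair-fed libraries held 2456 to 2852 CPM and the control libraries 2467 to 2688 CPM. Library 3 stood apart in a list of 7 striatal markers, which summed to 182 to 212 CPM in pair-fed libraries, 316 CPM in ad libitum risperidone library 3, 277 CPM in library 1, 204 to 210.0 CPM in the other libraries of that group and 206 to 219 CPM in control libraries. For each of the 9 genes, fold changes and calls are therefore given with all 20 libraries and with 18, leaving out ad libitum risperidone libraries 1 and 3, while group levels include all libraries unless stated. In bulk RNA, fewer cells of a type and less RNA per cell cannot be told apart.

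All 9 genes were higher in ad libitum risperidone library 1 than in any other library of that group. Against the median of the other libraries, the ratio was 12.7 for Egr3, 7 for Egr4 and 6.17 for Egr2. It was 3.69 for Nr4a3, 3.24 for Arc, 2.94 for Egr1 and 2.73 for Nr4a1, and lowest for Npas4 at 1.89 and Nr4a2 at 1.67. The part of the cortical markers in these levels was not tested.

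**Figure D1:**
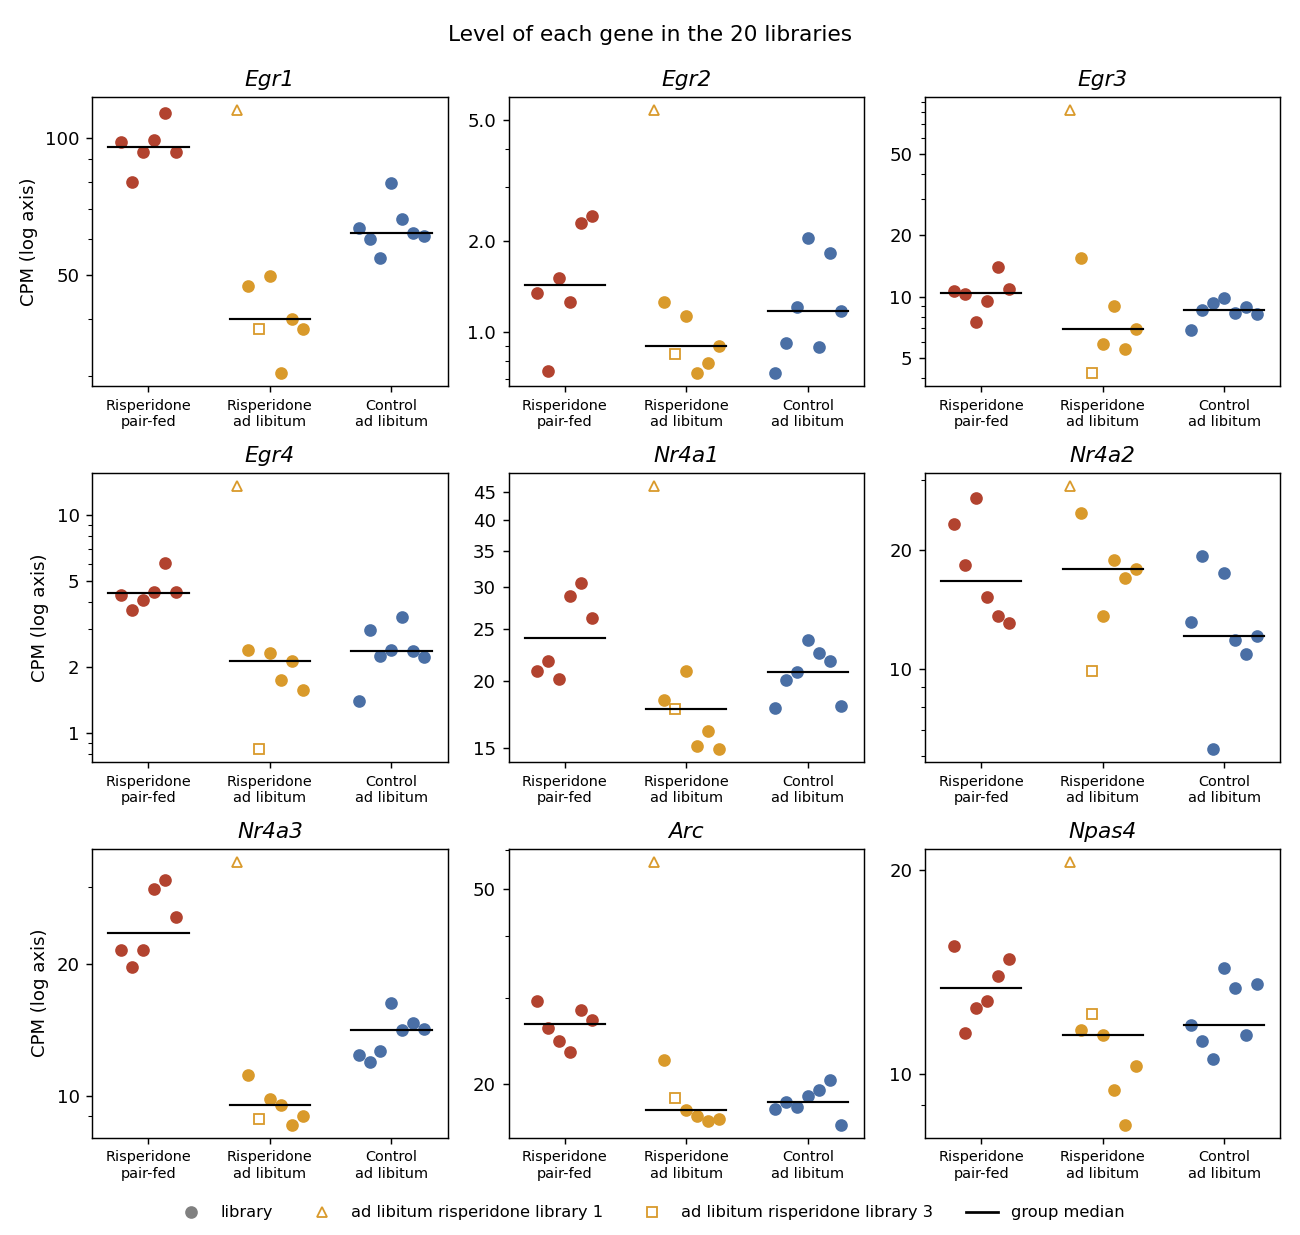
Level of each of the 9 genes (CPM, log axis) in every library of the pair-fed risperidone, ad libitum risperidone and control groups, with 1 point per library, open triangles and squares for ad libitum risperidone libraries 1 and 3, and lines for the group medians. For Egr1 the pair-fed libraries sit between 80.3 and 113.5 CPM, above the control libraries at 54.5 to 79.7 CPM, while the triangle stands at 115 CPM.

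The genes differed widely in level. Per kilobase of exon, so that genes can be compared, Egr1 was the highest in each group, with 21.5 ± 2.41 CPM per kilobase in pair-fed (SD, n = 6), 11.4 ± 6.43 in ad libitum risperidone (n = 7) and 14.2 ± 1.76 in control libraries (n = 7). Egr2 was the lowest in each group, with 0.468 ± 0.189, 0.464 ± 0.497 and 0.369 ± 0.145 CPM per kilobase in the same order of groups. In the control group the order from the top was Egr1, Arc (6.05 ± 0.407), Nr4a1 (5.9 ± 0.647), Nr4a2 (3.2 ± 1.07), Npas4 (2.98 ± 0.348), Nr4a3 (2.3 ± 0.257), Egr3 (1.95 ± 0.219), Egr4 (1.14 ± 0.292) and Egr2. Neighbours in that order whose libraries did not overlap were Egr1 and Arc, Nr4a1 and Nr4a2, and Egr4 and Egr2, and all other neighbours overlapped. In the pair-fed group Nr4a3 stood above Npas4, at 4.15 ± 0.792 against 3.27 ± 0.359 CPM per kilobase, with overlapping libraries. In the ad libitum risperidone group every pair of neighbours overlapped. Egr2 rested on few reads, 13 to 45 counts in pair-fed, 6 to 89 in ad libitum risperidone and 13 to 39 in control libraries, which limits what its values can show.

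**Figure D2:**
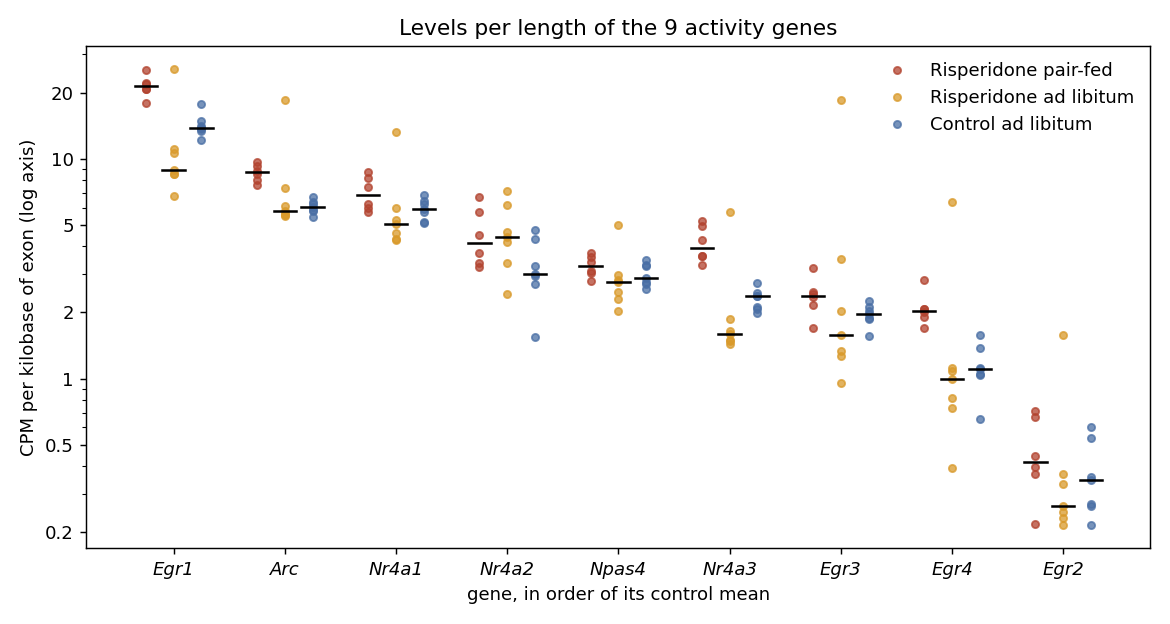
Level per kilobase of exon (CPM per kilobase, log axis) of the 9 genes, ordered by their control mean, with 1 point per library and lines for the group medians of pair-fed risperidone, ad libitum risperidone and control. Egr1 leads with a control mean of 14.2 and Egr2 closes the order with 0.369 CPM per kilobase.

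The pair-fed and ad libitum risperidone groups both received the drug, and their comparison addresses the feeding regime under risperidone. Over all 20 libraries no member passed the threshold, an adjusted p of 0.05, and 6 of 9 had positive values (48.4% of all genes). Without ad libitum risperidone libraries 1 and 3, Egr1, Egr4, Nr4a1, Nr4a3 and Arc rose in pair-fed mice, by a log2 fold change of 0.53 to 1.37. Leaving out library 1 alone gave 5 higher (0.207% of all genes) and 0 lower (0.521%), and leaving out library 3 alone gave 0.

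Egr1, a transcription factor of synaptic plasticity, ranged from 80.3 to 113.5 CPM with a median of 95.8 in pair-fed libraries, against 30.5 to 115 CPM with a median of 40.0 in ad libitum risperidone libraries. Library 1 held the 115 CPM, and the other ad libitum risperidone libraries, at 30.5 to 49.8 CPM, all lay below every pair-fed library. The log2 fold change was 0.90 (SE 0.207, adjusted p = 0.0556, edgeR quasi-likelihood test with Benjamini-Hochberg adjustment over all genes) with 20 libraries and 1.22 (SE 0.104, adjusted p = 9.97e-08) with 18. Its group mean was 96.25 ± 10.8 CPM in pair-fed libraries (SD, n = 6), against 41.2 ± 7.73 CPM in ad libitum risperidone libraries without 1 and 3 (SD, n = 5).

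Egr4, a neuron-enriched member of the family, ranged from 3.67 to 6.01 CPM with a median of 4.38 in pair-fed libraries, against 0.845 to 13.6 CPM with a median of 2.14 in ad libitum risperidone libraries. Apart from library 1, no ad libitum risperidone library exceeded 2.4 CPM. On the log2 scale its fold change was 0.32 (SE 0.408, adjusted p = 0.76) with 20 libraries and 1.14 (SE 0.172, adjusted p = 0.000562) with 18. Egr3, a regulator of Arc and of muscle spindle development, ranged from 7.5 to 14.0 CPM in pair-fed libraries, against 81.8 CPM in ad libitum risperidone library 1 and 4.23 to 15.4 CPM in the others of that group. Its groups overlapped, and its log2 fold change was −0.84 (SE 0.507, adjusted p = 0.469) with 20 libraries and 0.28 (SE 0.193, adjusted p = 0.659) with 18. For Egr2, best known as a factor of myelinating Schwann cells, the log2 fold change was −0.01 (SE 0.415) with 20 and 0.72 (SE 0.288, adjusted p = 0.339) with 18 libraries.

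Among the nuclear receptors, Nr4a3 differed the most. It ranged from 19.7 to 31.2 CPM with a median of 23.6 in pair-fed libraries, against 8.6 to 34.2 CPM with a median of 9.54 in ad libitum risperidone libraries. Library 1 held the highest value, and the other 6 libraries reached 11.2 CPM at most, below every pair-fed library. On the log2 scale its fold change was 0.92 (SE 0.249, adjusted p = 0.115) with 20 libraries and 1.37 (SE 0.113, adjusted p = 9.97e-08) with 18, a 2.58-fold difference.

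Nr4a1, a nuclear receptor induced in many cell types, ranged from 20.2 to 30.5 CPM in pair-fed libraries, against 46.2 CPM in ad libitum risperidone library 1 and 14.95 to 20.9 CPM in the others. The log2 fold change was 0.21 (SE 0.202, adjusted p = 0.671) with 20 libraries and 0.53 (SE 0.11, adjusted p = 0.0168) with 18, with groups that still overlapped. Nr4a2 overlapped between the groups with 20 and with 18 libraries. It ranged from 13.03 to 27.2 CPM in pair-fed libraries, against 9.86 to 29.0 CPM in ad libitum risperidone libraries, with a log2 fold change of −0.05 (SE 0.232) with 20 and −0.01 (95% interval −0.44 to 0.43) with 18 libraries.

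Arc ranged from 23.3 to 29.5 CPM with a median of 26.5 in pair-fed libraries, against 56.7 CPM in ad libitum risperidone library 1 and 16.8 to 22.4 CPM in the others. Apart from library 1, every ad libitum risperidone library lay below every pair-fed library. Its log2 fold change was 0.15 (SE 0.214, adjusted p = 0.793) with 20 libraries and 0.53 (SE 0.0761, adjusted p = 0.00027) with 18. Npas4 ranged from 11.5 to 15.4 CPM in pair-fed libraries, against 20.6 CPM in ad libitum risperidone library 1 and 8.43 to 12.3 CPM in the others. With 18 libraries its fold change, 0.40 on the log2 scale (SE 0.0963, adjusted p = 0.0507), stayed short of the threshold, and with 20 it was 0.17 (SE 0.147, adjusted p = 0.616).

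Counted over the 9 genes, edgeR called 0 with 20 libraries, where 0.112% of all genes tested were called higher and 0.285% lower. Counting members with an unadjusted p under 0.05 gave 2, both higher in pair-fed mice, against 6.09% of all genes. DESeq2 called 2 members higher (0.291% of all genes) and 0 lower (0.671%), and limma-voom with weights for library quality called 5 higher (0.268%) and 0 lower (0.509%). With 18 libraries edgeR called 5 of 9 higher (0.239% of all genes) and 0 lower (0.551%), and 4 of 9 lay above every ad libitum risperidone library (0.634%). The median log2 fold change of the 9 was 0.17 with 20 and 0.53 with 18 libraries, against −0.0049 and 0.0011 over all genes tested. Other markers moved in the same comparison. All 5 ependymal markers tested were higher in pair-fed mice at an unadjusted p under 0.05 and summed to 38.6 to 53.3 CPM in pair-fed against 24.6 to 45.4 CPM in ad libitum risperidone libraries, and with 18 libraries 3 of the 5 met that threshold. Of the 5 blood markers, 2 were higher at an unadjusted p under 0.05 with 20 libraries and 0 with 18, with sums of 49.6 to 189 CPM in pair-fed against 36.8 to 119 CPM in ad libitum risperidone libraries. Of the 8 cortical markers tested, 7 were lower at an unadjusted p under 0.05 with 20 libraries and 2 with 18. Of the 6 oligodendrocyte markers, 0 met that threshold with 20 libraries and 2 were lower with 18. Of the 7 striatal markers, 2 were lower at it with 20 and with 18 libraries. Of the 5 neuron markers, 1 was lower at it with 20 and with 18 libraries. Over all genes tested, 1090 of 17893 were higher and 1332 lower at the same threshold with 20 libraries. With 18 libraries 932 of 17978 were higher and 950 lower. Among the marker lists, 2 genes passed the adjusted threshold. The heat shock gene Dnajb1 was higher with 20 libraries (adjusted p = 0.0414) and with 18 (log2 fold change 0.26, adjusted p = 0.0138), and the astrocyte gene Aldh1l1 was lower with 18 (−0.18, adjusted p = 0.0377). The median of Dnajb1 was 87 CPM in pair-fed, 73.2 CPM in ad libitum risperidone and 87.4 CPM in control libraries. The part of these markers in the result was not tested.

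**Figure D3:**
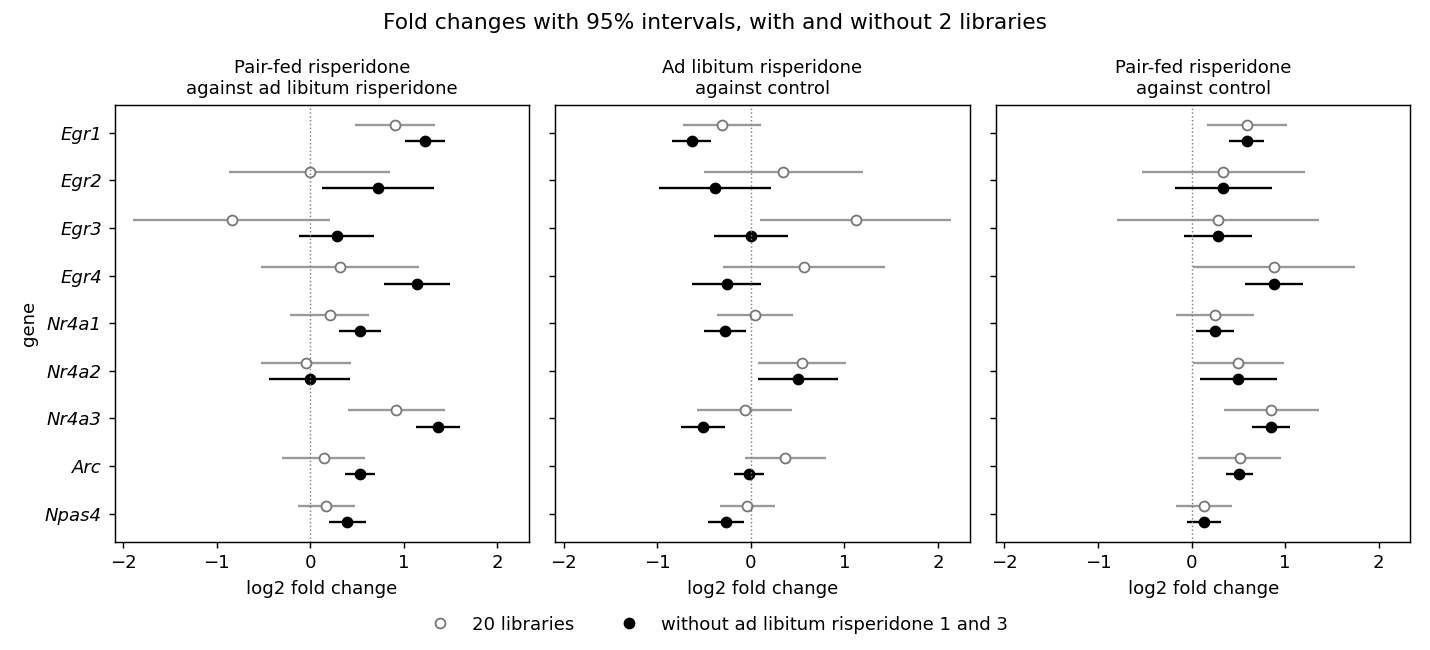
Log2 fold change of each gene in the 3 comparisons, with lines for 95% intervals, open points for all 20 libraries and filled points for the 18 libraries without ad libitum risperidone 1 and 3. In pair-fed against ad libitum risperidone, Egr1 stands at 0.90 with 20 and 1.22 with 18 libraries, and Egr3 at −0.84 and 0.28.

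Ad libitum risperidone mice were set against control mice to address the drug under free feeding. With 20 libraries no member passed the threshold, and 6 of 9 had positive values (52.9% of all genes). With 18 libraries Egr1 fell in ad libitum risperidone mice, and 1 of 9 values was positive (49.7%). With library 1 alone left out, both Egr1 and Nr4a3 fell (0.118% of all genes) and 0 rose (0.0784%), and with library 3 alone left out the count was 0.

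Egr1 ranged from 30.5 to 115 CPM with a median of 40.0 in ad libitum risperidone libraries, against 54.5 to 79.7 CPM with a median of 62.0 in control libraries. Except for library 1, every ad libitum risperidone library lay below every control library. Its fold change on the log2 scale was −0.31 (SE 0.201, adjusted p = 0.523) with 20 libraries and −0.63 (SE 0.101, adjusted p = 0.00484) with 18.

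Nr4a3 ranged from 8.6 to 34.2 CPM with a median of 9.54 in ad libitum risperidone libraries, against 11.95 to 16.3 CPM with a median of 14.2 in control libraries. Here too the 6 libraries other than 1 lay below every control library. On the log2 scale the fold change was −0.07 (SE 0.247, adjusted p = 0.945) with 20 libraries and −0.51 (SE 0.113, adjusted p = 0.0519) with 18, and −0.53 (SE 0.109, adjusted p = 0.044) with library 1 alone left out. Its call in this comparison thus differed between leaving out 1 and 2 libraries.

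The other members did not pass with 20 or with 18 libraries. Nr4a2 was the only one with a positive value in the 18 libraries, at 0.50 (SE 0.208, adjusted p = 0.312), and it was 0.55 (SE 0.228, adjusted p = 0.316) in 20. Its mean was 18.7 ± 6.49 CPM in ad libitum risperidone (SD, n = 7) and 13.01 ± 4.33 CPM in control libraries (SD, n = 7). Npas4 was at −0.27 (SE 0.0939, adjusted p = 0.227) and Nr4a1 at −0.28 (SE 0.108, adjusted p = 0.277) with 18 libraries, and at −0.041 and 0.048 with 20. Egr2 was at 0.35 (SE 0.411) with 20 and −0.38 (SE 0.289) with 18 libraries, and Egr4 at 0.57 (SE 0.415) with 20 and −0.26 (SE 0.178) with 18. Arc was at 0.37 (95% interval −0.07 to 0.80) with 20 libraries and at −0.02 (95% interval −0.175 to 0.136) with 18. Egr3 was at 1.12 (SE 0.492, adjusted p = 0.332) with 20 libraries and at −0.00073 (95% interval −0.39 to 0.39) with 18.

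By edgeR, 0 of 9 members were called with 20 libraries, where 0.0168% of all genes were called higher and 0.0447% lower. At an unadjusted p under 0.05 there were 2, both positive, against 7.14% of all genes. DESeq2 called 0 members (0.201% of all genes higher and 0.369% lower) and limma-voom 0 higher (0.095%) and 1 lower, Egr1 (0.19%). With 18 libraries edgeR called 1 lower (0.145% of all genes) and 0 higher (0.122%), and 2 members lay below every control library (0.606%). The median of the 9 was 0.35 with 20 and −0.27 with 18 libraries, against 0.0077 and −0.001 over all genes. Of the 13 hypothalamic markers, 9 were lower in ad libitum risperidone libraries at an unadjusted p under 0.05 with 20 as with 18 libraries, and all 5 ependymal markers tested were lower at the same threshold, again with 20 and with 18. Of the 8 cortical markers tested, 7 were higher at that threshold with 20 libraries and 2 with 18. Of the 6 oligodendrocyte markers, 0 met it with 20 libraries, and all 6 were higher with 18, where Mobp passed the adjusted threshold (log2 fold change 0.42, adjusted p = 0.0333). Of the 5 neuron markers, 1 was higher at the unadjusted threshold with 20 libraries and 3 with 18. Of the 4 heat shock genes, 2 were lower at it with 20 libraries and 1 with 18. Dnajb1 reached at most 74.7 CPM in ad libitum risperidone libraries, below every control library at 76.2 to 89.8 CPM. Over all genes tested, 1277 of 17893 were higher and 1068 lower at the unadjusted threshold with 20 libraries. With 18 libraries 1086 of 17978 were higher and 1161 lower. Hypothalamic sums were 576 to 1432 CPM in ad libitum risperidone and 1271 to 1655 CPM in control libraries, and ependymal sums 24.6 to 45.4 and 42.2 to 51.8 CPM. Oligodendrocyte sums were 3200 CPM in ad libitum risperidone library 1, 6361 CPM in library 3 and 7398 to 9642 CPM in the others of that group, against 5934 to 8298 CPM in control libraries. Their part in the levels of the activity genes was not tested.

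Setting pair-fed risperidone mice against control mice does not compare the levels of the ad libitum risperidone libraries. Those libraries still enter the low-count filter, the scaling and the spread that all groups share in the model. All 9 genes had positive values (51.5% of all genes). Egr1, Egr4, Nr4a3 and Arc lay above every control library in every pair-fed library, with log2 fold changes of 0.51 to 0.88. By edgeR they missed the threshold when the spread was estimated from 20 libraries. They passed it when libraries 1 and 3 were left out, or when the pair-fed and control libraries were fitted by themselves. Other tools differed, and over 20 libraries limma-voom with weights for library quality called 4 members higher and DESeq2 called 1.

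For Nr4a3, the pair-fed libraries held 19.7 to 31.2 CPM, against 11.95 to 16.3 CPM in the control libraries. The means were 24.9 ± 4.74 CPM in pair-fed (SD, n = 6) and 13.8 ± 1.54 CPM in control libraries (SD, n = 7), and the log2 fold change was 0.85. Its standard error was 0.245 (adjusted p = 0.212) with 20 libraries, 0.0977 (adjusted p = 8.45e-06) with 18 and 0.102 (adjusted p = 4.86e-05) in the fit to both groups by themselves.

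Arc held 23.3 to 29.5 CPM in pair-fed libraries, against 16.6 to 20.4 CPM in control libraries, with means of 26.4 ± 2.32 (SD, n = 6) and 18.5 ± 1.24 CPM (SD, n = 7). The groups did not overlap. Its log2 fold change was 0.51, with an adjusted p of 0.627 with 20 libraries, 6.93e-05 with 18 and 4.2e-05 in the fit to both groups by themselves.

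Egr1 held 80.3 to 113.5 CPM in pair-fed libraries, against 54.5 to 79.7 CPM in control libraries. The lowest pair-fed and the highest control library were close. The log2 fold change was 0.59, with an adjusted p of 0.417 with 20 libraries, 0.000407 with 18 and 0.000124 in the fit to both groups by themselves. Egr4 held 3.67 to 6.01 CPM in pair-fed libraries, against 1.41 to 3.4 CPM in control libraries. Its log2 fold change was 0.88, with an adjusted p of 0.737 with 20 libraries, 0.0015 with 18 and 0.00334 in the fit to both groups by themselves.

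The other 5 genes did not pass in any of these fits. Nr4a1 was at 0.25 (SE 0.0986, adjusted p = 0.294) and Nr4a2 at 0.50 (SE 0.199, adjusted p = 0.306) with 18 libraries. Npas4 was at 0.13 (95% interval −0.05 to 0.31), Egr3 at 0.28 (95% interval −0.08 to 0.65) and Egr2 at 0.34 (95% interval −0.18 to 0.86) with the same libraries. With 20 libraries the values were 0.25 for Nr4a1 (SE 0.2), 0.50 for Nr4a2 (SE 0.235), 0.13 for Npas4 (SE 0.145), 0.28 for Egr3 (SE 0.521) and 0.34 for Egr2 (SE 0.42). Their pair-fed and control libraries overlapped.

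In counts, edgeR called 0 of 9 with 20 libraries, where 0.0503% of all genes were called higher and 0.436% lower. At an unadjusted p under 0.05 there were 5, all higher, against 3.06% of all genes. Members above every control library numbered 4 of 9 (0.341% of all genes). DESeq2 called 1 higher (0.112%) and 0 lower (0.637%), and limma-voom 4 higher (0.285%) and 0 lower (0.961%). With 18 libraries edgeR called 4 higher (0.3% of all genes) and 0 lower (1.09%), with the pair-fed and control libraries by themselves 4 higher (0.326%) and 0 lower (1.07%), and with library 1 alone left out 4 higher (0.196%) and 0 lower (0.734%). The median of the 9 was 0.50 in both the 20 and the 18 libraries, against 0.0026 and 6e-04 over all genes. Of the 13 hypothalamic markers, 3 were lower at an unadjusted p under 0.05 with 20 libraries and 4 with 18. Over all genes tested, 547 of 17893 were higher and 644 lower at that threshold with 20 libraries. With 18 libraries 934 of 17978 were higher and 1093 lower. Of the 6 oligodendrocyte markers, 0 met that threshold with 20 libraries and 3 were higher with 18. The striatal gene Pde10a was lower with 18 libraries (log2 fold change −0.28, adjusted p = 0.0017), and 0.0591 was its adjusted p with 20. The part of these markers in the result was not tested. None of the 8 cortical markers tested met the unadjusted threshold in this comparison with 20 or with 18 libraries, and their sums were 548 to 666 CPM in pair-fed and 620 to 716 CPM in control libraries.

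**Figure D4:**
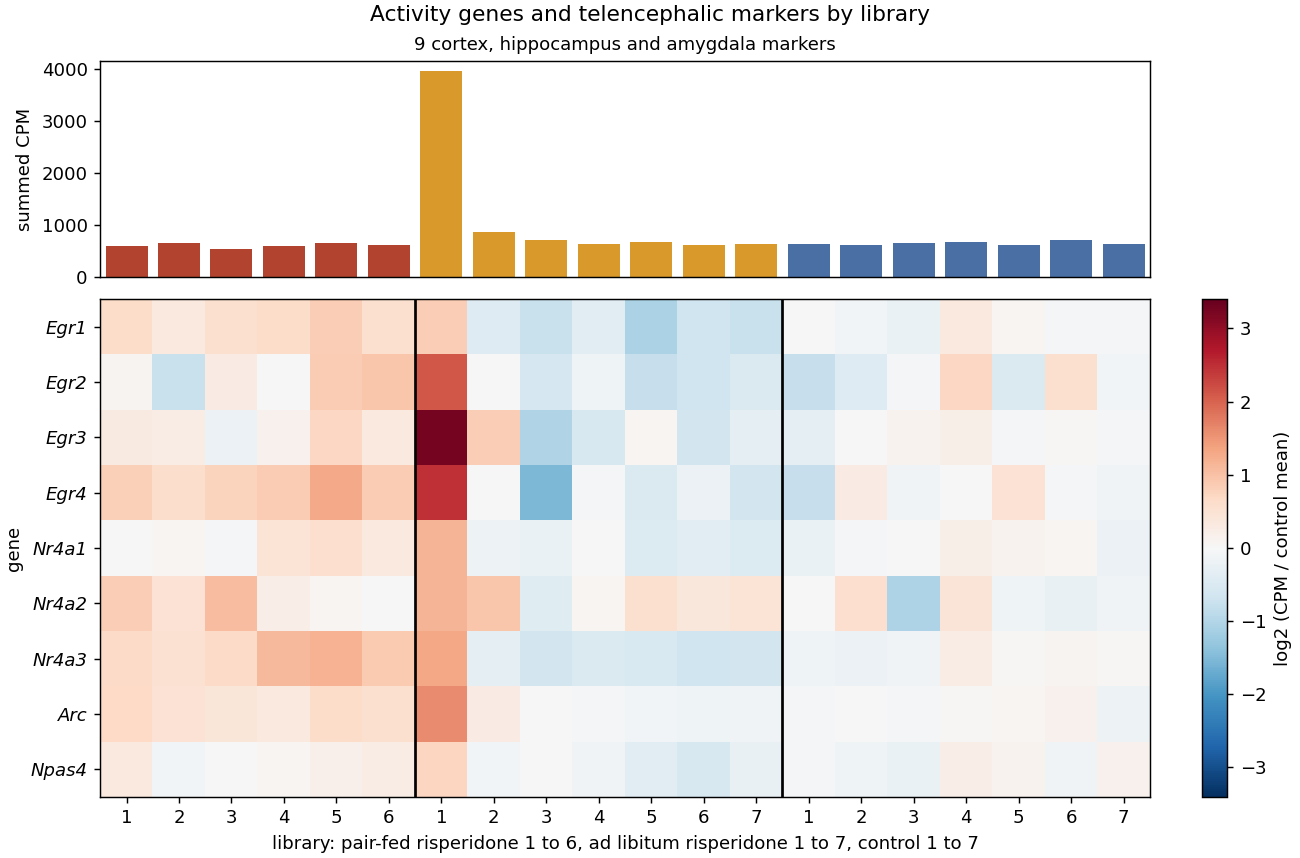
Upper panel, summed level (CPM) of 9 markers of cortex, hippocampus and amygdala in each library. Lower panel, level of each of the 9 genes in each library as log2 of its CPM over the control mean, with the groups in the order pair-fed risperidone, ad libitum risperidone and control divided by black lines. Ad libitum risperidone library 1 has a marker sum of 3950 CPM and the highest level of its group for all 9 genes.

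Within a group, several genes were often highest in the same library. In the pair-fed group library 5 was the highest for 5 genes (Egr1, Egr3, Egr4, Nr4a1 and Nr4a3) and library 2 the lowest for 5 genes. In the control group library 4 was the highest for 6 genes (Egr1, Egr2, Egr3, Nr4a1, Nr4a3 and Npas4). Over the 18 libraries, the log2 level of Nr4a3 had a Pearson r of 0.933 with the mean of the 9 standardised genes, itself included, and the lowest value among the other members except Nr4a2 was 0.691, for Egr3. Nr4a2 had r = 0.196, and 0.148 after the group means were taken away. These correlations describe libraries that share their preparation and depth, and each gene is part of the mean it is compared with.

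Outside the fixed pathway lists, the 6 genes whose log2 level followed that mean most closely over the 18 libraries were Wnt7b, Mid1ip1, Ikzf4, Pla2g4e, Ovca2 and Nr1d1. Wnt7b, a secreted Wnt ligand, had a Pearson r of 0.914 and a Spearman rho of 0.938, with r = 0.763 within groups and 0.924 over 20 libraries. Its median was 30.9 CPM in pair-fed, 25.3 CPM in ad libitum risperidone and 27.4 CPM in control libraries. Nr1d1, a repressor of the circadian clock, had r = 0.822 and rho = 0.928, with r = 0.626 within groups and 0.655 over 20 libraries. Its median was 98.6 CPM in pair-fed, 81.0 CPM in ad libitum risperidone and 91.7 CPM in control libraries, and its pair-fed libraries, at 96.8 to 102 CPM, lay above the control libraries at 87.9 to 96.5 CPM. The other 4 had r between 0.826 and 0.848 over 18 libraries, and Mid1ip1, at 0.848, had −0.0917 over 20.

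Other genes of the same response were followed through lists that exclude the 9 members. Over all genes with 20 libraries, 0.112% were called higher and 0.285% lower in pair-fed against ad libitum risperidone. The shares were 0.0168% and 0.0447% in ad libitum risperidone against control, and 0.0503% and 0.436% in pair-fed against control. With 18 libraries they were 0.239% and 0.551%, 0.122% and 0.145%, and 0.3% and 1.09% in that order. Of 8 genes of the AP-1 factors Fos, Jun and Atf3, 7 were measured. In pair-fed against ad libitum risperidone 4 of 7 rose and 0 fell with 20 libraries. Again 4 rose with 18, though not the same 4. Fos, the most widely used activity marker, averaged 33.7 ± 4.96 CPM in pair-fed (SD, n = 6) and 13.1 ± 3.98 CPM in ad libitum risperidone libraries (SD, n = 7). Its log2 fold change was 1.35 (SE 0.149, adjusted p = 2.32e-05), and unlike the 9 members its groups did not overlap with library 1 included. Fosl2 rose by 0.75 (SE 0.124, adjusted p = 0.004) and Fosb by 0.91 (SE 0.153, adjusted p = 0.004) on the log2 scale with 20 libraries, and by 0.86 and 1.09 with 18. Atf3, at 0.83 (SE 0.184, adjusted p = 0.0434), passed with 20 libraries and not with 18 (adjusted p = 0.066). Against control, Fos rose by 0.67 (SE 0.143, adjusted p = 0.029) in pair-fed mice, the only gene of the list to pass. In ad libitum risperidone against control 0 of 7 passed with 20 libraries, and Fos, Fosb and Fosl2 fell with 18, Fos by 0.77 (SE 0.121, adjusted p = 0.00391).

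Of 35 other early genes, 1 rose and 0 fell in pair-fed against ad libitum risperidone with 20 libraries. That gene was Coq10b, a mitochondrial coenzyme Q binding protein, at 0.37 (SE 0.0618, adjusted p = 0.004). In ad libitum risperidone against control 0 rose and 1 fell, Gadd45g, a growth arrest and stress gene, at −0.46 (SE 0.0829, adjusted p = 0.0343). In pair-fed against control 0 rose and 1 fell, Trib1, a pseudokinase gene, at −0.51 (SE 0.0906, adjusted p = 0.00464). With 18 libraries 3 rose (0.239% of all genes) and 0 fell (0.551%) in pair-fed against ad libitum risperidone. In ad libitum risperidone against control 0 rose (0.122%) and 2 fell (0.145%), and in pair-fed against control 2 rose (0.3%) and 2 fell (1.09%). The median log2 fold changes of the list with 20 libraries were 0.04, −0.05 and 0.02.

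Of 10 late response genes, which are induced by the early factors, Gpr3, a constitutively active receptor, rose by 0.48 (SE 0.0928, adjusted p = 0.0158) in pair-fed against ad libitum risperidone. Vgf, a neuropeptide precursor, fell by 0.28 (SE 0.0616, adjusted p = 0.0403) there. None of the 10 passed in either comparison with control over 20 libraries. In pair-fed against control with 18 libraries 0 rose and 3 fell, among them the neuronal pentraxin gene Nptx2 at −0.31 (SE 0.048, adjusted p = 0.000407). The median of this list was negative in that comparison, at −0.12 with 20 libraries, while that of the 9 members was positive.

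Of 21 upstream regulators, the kinases and factors that act on early gene promoters, none passed in any comparison with 20 libraries. With 18 libraries Elk1, a serum response factor partner, fell by 0.19 (SE 0.0421, adjusted p = 0.027) in pair-fed against ad libitum risperidone and by 0.18 (SE 0.0388, adjusted p = 0.0121) in pair-fed against control. Mrtfb, a coactivator of serum response factor, fell by 0.21 (SE 0.0524, adjusted p = 0.0379) in pair-fed against control. Of 7 partners of the members, none passed with 20 libraries. With 18 libraries Nab2, the Egr corepressor, rose by 0.45 (SE 0.0829, adjusted p = 0.00585) in pair-fed against ad libitum risperidone and by 0.35 (SE 0.0751, adjusted p = 0.0124) in pair-fed against control. In pair-fed against control, Nab1 rose by 0.19 (SE 0.0485, adjusted p = 0.0475) and Rxra, a nuclear receptor partner of Nr4a1 and Nr4a2, fell by 0.20 (SE 0.0433, adjusted p = 0.0118).

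The comparisons share groups, so their values are not independent of each other. Pair-fed against ad libitum risperidone is the difference between the changes of both groups from control, and with 18 libraries Egr1 combined 0.59 against control in pair-fed mice with −0.63 in ad libitum risperidone mice. Nr4a3 combined 0.85 with −0.51. For Arc the values were 0.51 in pair-fed mice and −0.02 in ad libitum risperidone mice, and for Egr4 0.88 and −0.26.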

How the data were processed

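The deposited table gives raw read counts for each gene, as whole numbers that were not normalized, and each of its value columns belongs to 1 of the 20 libraries. Per the submitters' processing notes, the tools were STAR, featureCounts and DESeq2 and the builds GRCm38 and mm10, while the sources used here give no version, strand setting or filter. Total RNA was sequenced as paired-end reads on a DNBseq instrument, per the labels' protocols. Identifiers were matched to GENCODE M21 on GRCm38, which named 55230 of 55471 genes.

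The test was edgeR's quasi-likelihood F test (edgeR 4.0.16, R 4.3.3), with TMM scaling, a minimum count of 10 in filterByExpr, and all 3 groups in 1 model. Tests were two-sided, and a gene was called at a Benjamini-Hochberg adjusted p under 0.05 over all genes of a comparison, 17893 with 20 and 17978 with 18 libraries. Levels are TMM-scaled CPM, and log2 levels used a prior count of 2. The common biological coefficient of variation was 11.26%. Duplicates were looked for by a chi-square test over genes summing to 20 counts or more: in the 57 pairs within groups, chi-square over its degrees of freedom was never below 2.64, so each library was counted once. Whether the shared replicate numbers pair libraries was checked by correlation and is given under the dependence on processing.

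The alternatives were RLE and upper quartile scaling, dropping the low-count filter or asking for a mean of 1 CPM, DESeq2 1.42.0, voom with quality weights in limma 3.58.1, robust dispersions, a fit to the groups compared alone, a replicate block, and leaving out each library or both ad libitum risperidone libraries 1 and 3. DESeq2 ran with its default settings, under which outlying counts can be replaced, and whether any were replaced was not recorded. The 9 genes, the 5 pathway lists beside them and the 14 marker lists were chosen with earlier results of these data known. Named were all 9 members, up to 4 genes of each pathway list with the smallest unadjusted p in the 3 comparisons, and the 6 genes outside these lists with the highest Pearson r of log2 level to the mean standardised level of the members over 18 libraries, with predicted genes and means under 1 CPM excluded. Motifs were searched on both strands in RefSeq windows of 300 bases, from 250 before to 50 after each start.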

Additional observations from a re-analysis of the deposited data

Results flagged for a closer look

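Within each group, the highest and lowest library of each gene were compared with their nearest neighbour by Dixon's test. Chance would flag about 1 in 20 independent groups of values, and here 9 of 27 were flagged. The 9 genes were measured in the same libraries, so these flags are not independent and their number cannot be set against that rate. In 8 of them the extreme value was the highest of the group and came from ad libitum risperidone library 1: Egr1 at 115 CPM, Egr2 at 5.38 CPM, Egr3 at 81.8 CPM, Egr4 at 13.6 CPM, Nr4a1 at 46.2 CPM, Nr4a3 at 34.2 CPM, Arc at 56.7 CPM and Npas4 at 20.6 CPM. The cortical marker sum of that library was 3950 CPM, against 623 to 879 CPM in the others of its group, and its part in these levels was not tested. Nr4a2 was also highest in this library, at 29.0 CPM, next to 24.9 CPM in library 2, and was not far enough apart. The remaining case was Egr4 in pair-fed library 5, at 6.01 CPM, where the other pair-fed libraries held 3.67 to 4.46 CPM and the cortical marker sum was 666 CPM.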

How the results depend on the processing

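Over 30 alternatives for each comparison, the count of members called was 0 as reported unless given here. In pair-fed against ad libitum risperidone it was 1 with upper quartile scaling, 1 without a low-count filter, 2 by DESeq2, 5 by limma-voom, and 5 when ad libitum risperidone libraries 1 and 3 were dropped. Over all genes, 16 of 17893 were called higher with upper quartile scaling and 18 of 41670 without a low-count filter. In ad libitum risperidone against control it was 1 with limma-voom and 1 without both libraries. In pair-fed against control it was 1 with DESeq2, 4 with limma-voom, 4 with only the groups compared and 4 without both libraries. Leaving out single libraries gave 0 to 5, 0 to 2 and 0 to 4 members in the same order, and the calls came with library 1 of the ad libitum risperidone group left out. The replicate numbers gave no sign of pairing the libraries, though a check by correlation cannot exclude it. Over 19 same-number pairs the correlation of deviations was −0.158 to 0.304, with 2 pairs over 0.1. Over 114 pairs with different numbers it was −0.294 to 0.399, with 16 pairs over 0.1. Of the 20 libraries, 0 correlated best with their own number. With replicate number as a block 1 member was called, Egr1 in pair-fed against ad libitum risperidone (adjusted p = 0.0416), and the count stayed at 0 in the other comparisons. In that fit 11 of 17893 genes were called higher in pair-fed against ad libitum risperidone.

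Signs turned for genes that were not called with 20 libraries. In pair-fed against ad libitum risperidone, the log2 fold change of Egr2 was 0.019 with upper quartile scaling, 0.0018 without a filter, 0.00054 with DESeq2, 0.61 with limma-voom, 0.068 with the replicate block and 0.72 without both libraries. Egr3 was at 0.36 with limma-voom and 0.28 without both libraries. In ad libitum risperidone against control, Egr4 was at −0.25 with DESeq2. With limma-voom Egr2 was at −0.18, Egr3 at −0.074, Egr4 at −0.24 and Nr4a1 at −0.23, and Nr4a1 was at −0.018 with the replicate block. Without both libraries Egr2 was at −0.38, Egr3 at −0.00073, Egr4 at −0.26, Nr4a1 at −0.28 and Arc at −0.020. With single libraries left out, pair-fed against ad libitum risperidone ranged from −0.16 to 0.74 for Egr2, −0.999 to 0.369 for Egr3 and −0.19 to 0.081 for Nr4a2. Ad libitum risperidone against control ranged from −0.40 to 0.51 for Egr2, −0.085 to 1.28 for Egr3, −0.34 to 0.70 for Egr4, −0.27 to 0.12 for Nr4a1, −0.53 to 0.018 for Nr4a3, −0.014 to 0.44 for Arc and −0.23 to 0.032 for Npas4. The cause was not tested. In pair-fed against control no sign turned in any alternative. Counts in ad libitum risperidone libraries were as low as 6 for Egr2 and for Egr4, which limits the precision of their values.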
